A study of Rattus norvegicus with 8 samples.

Results

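The carnitine shuttle, the set of transporters and acyltransferases that moves fatty acyl groups into mitochondria, was described here by 7 genes: Slc22a5, Cpt1a, Cpt1b, Slc25a20, Cpt2, Crat and Crot. All 7 had probe sets on the array, 10 in all out of 31042, and all 7 were among the 10266 genes with a tested probe set. Members were every probe set whose single gene symbol is on that list, and the brightest probe set led for each gene. The genes were selected on their role, by a list drawn up when their log2 differences between the diets were already known. Those values are given as a description, and no test of the members independent of that choice was possible with these arrays.

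Total RNA from scrapings of the distal colon mucosa of Rattus norvegicus was measured on 8 arrays. The quercetin group (4 arrays) received 10 g of quercetin, a plant flavonol, per kg of diet for 11 weeks. The control group (4 arrays) received the control diet, RM3 [E] FG SQC breeder chow, over the same 11 weeks. The labels give neither strain, sex nor age, and do not say how many rats stand behind an array. Errors therefore measure the spread between these arrays, which may be technical.

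Colon epithelial cells burn fatty acids, chiefly butyrate made by gut bacteria. Butyrate and other short chains can cross into mitochondria on their own, whereas long chains need carnitine. SLC22A5 (OCTN2) takes carnitine up at the plasma membrane, CPT1 on the outer mitochondrial membrane swaps coenzyme A for carnitine, SLC25A20 carries the acylcarnitine through the inner membrane, and CPT2 hands the chain back to coenzyme A for oxidation. CRAT and CROT do the same exchange for short chains and for the medium chains that leave peroxisomes.

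The gene starts of the 2 inner-membrane genes, of Cpt1a and of the plasma membrane carrier are shown because the first 3 had higher signals in quercetin and the carrier did not. Each window is 300 bases long, 250 before and 50 after 1 annotated start (RefSeq, build GRCr8), 5′ to 3′ on the gene's strand. Capitals mark the GC box GGGCGG, the site of SP family factors, on either strand. The windows are Slc25a20 at chr8:118243323-118243622 (+), Cpt2 at chr5:127910769-127911068 (-), Cpt1a at chr1:209995910-209996209 (+) and Slc22a5 at chr10:38536023-38536322 (-).
Slc25a20: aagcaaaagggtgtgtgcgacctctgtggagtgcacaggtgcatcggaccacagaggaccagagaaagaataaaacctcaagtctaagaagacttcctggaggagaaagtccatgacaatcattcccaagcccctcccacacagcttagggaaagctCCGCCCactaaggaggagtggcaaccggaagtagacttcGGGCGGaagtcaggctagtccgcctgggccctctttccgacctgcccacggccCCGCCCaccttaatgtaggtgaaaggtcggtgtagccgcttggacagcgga
Cpt2: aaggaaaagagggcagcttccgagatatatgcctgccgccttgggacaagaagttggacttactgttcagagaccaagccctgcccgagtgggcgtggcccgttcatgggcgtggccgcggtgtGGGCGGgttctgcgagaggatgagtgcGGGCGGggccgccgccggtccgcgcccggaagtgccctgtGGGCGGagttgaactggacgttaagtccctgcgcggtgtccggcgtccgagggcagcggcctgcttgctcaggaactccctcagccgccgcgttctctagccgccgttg
Cpt1a: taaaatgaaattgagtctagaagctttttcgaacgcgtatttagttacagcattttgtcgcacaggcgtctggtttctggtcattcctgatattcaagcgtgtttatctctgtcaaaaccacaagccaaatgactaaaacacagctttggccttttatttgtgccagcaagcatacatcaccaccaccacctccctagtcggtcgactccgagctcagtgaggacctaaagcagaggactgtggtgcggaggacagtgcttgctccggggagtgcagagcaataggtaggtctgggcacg
Slc22a5: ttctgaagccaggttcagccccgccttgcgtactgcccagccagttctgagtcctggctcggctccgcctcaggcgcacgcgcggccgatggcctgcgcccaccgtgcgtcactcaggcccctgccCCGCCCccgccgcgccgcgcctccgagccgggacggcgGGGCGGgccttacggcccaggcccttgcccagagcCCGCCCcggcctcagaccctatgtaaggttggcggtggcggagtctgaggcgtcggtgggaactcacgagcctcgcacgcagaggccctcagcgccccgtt

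The Slc25a20, Cpt2 and Slc22a5 windows each held 3 GC boxes, and so did that of Crot. The Crat window held 2 and the Cpt1a window 0, while 34.9% of all 27457 promoter windows of this length held at least 1. The Cpt1a window also had the lowest GC content of the 6, 48.3%, against 56.7% for Slc25a20, 66.7% for Cpt2 and 73.7% for Slc22a5. The nuclear receptor half-site AGGTCA, present in 15.7% of windows, and its direct repeat AGGTCANAGGTCA (0.0583%) were in none of the 6. The core TGACNNNGC of the antioxidant response element, present in 12.2%, was in the Crat window only, and CCAAT, present in 37.7%, in the Crot window only. All motifs were searched on both strands, and no 2 of them shared bases in these windows. The letters of a window are a description and not a test of binding. Cpt1b had no entry in the table.

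Of the shuttle genes, Slc25a20, Cpt2 and Cpt1a had the highest ratios of quercetin to control. Slc25a20 and Cpt2 were 1.62 and 1.56 times as high as in control, measured on log2(signal + 16), and Cpt1a 1.25 times, whereas Slc22a5 and Crot lay near the control level and Cpt1b, the muscle form of CPT1, was dim and lower. None of these differences passed the threshold over all probe sets. Of the 9 member probe sets tested by limma, 0 had an adjusted p under 0.05, where 0.0107% of all 18625 tested did. At an unadjusted p under 0.05 there were 4, of 3 genes, against 10.8% of all probe sets, and 3 member probe sets had every quercetin array above every control array, against 3.09% of all. Since the members were chosen with this contrast in view, nothing is read from these counts.

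**Figure D1:**
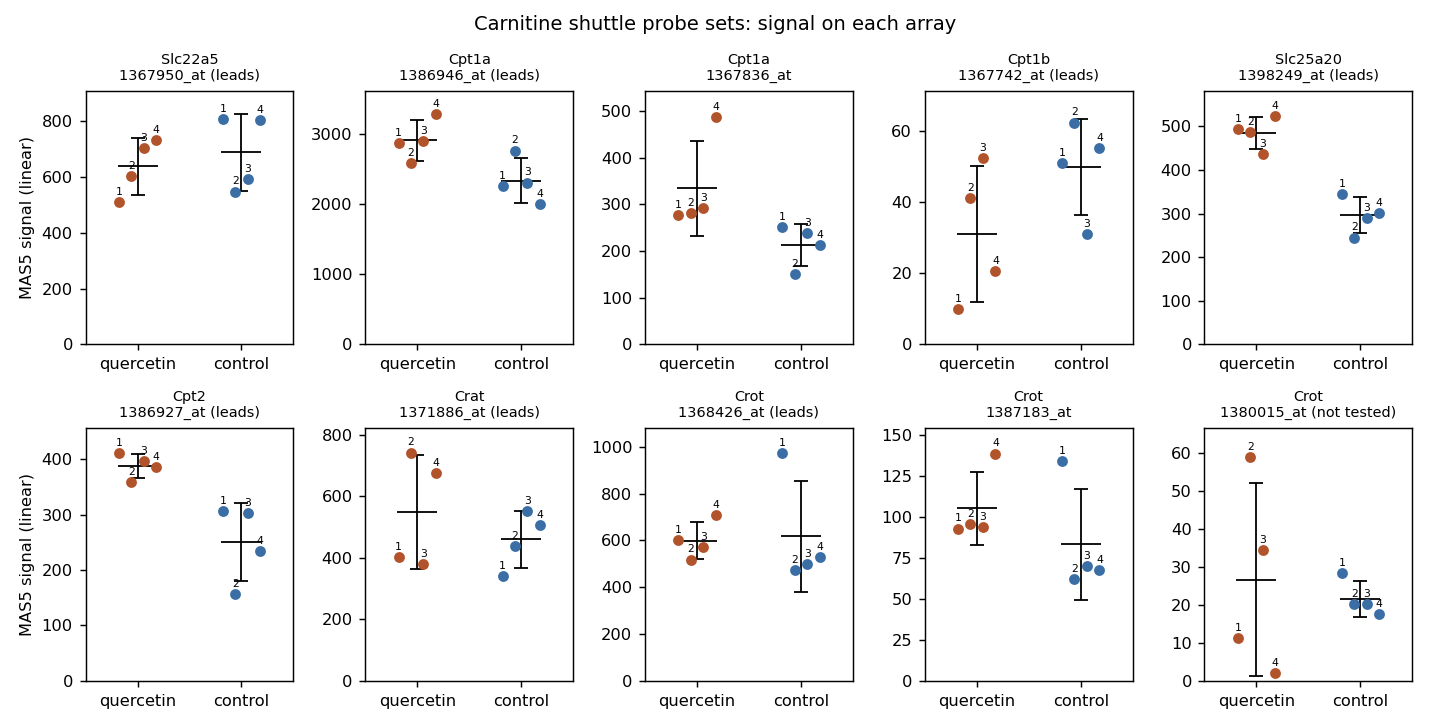
MAS5 signal (linear axis from 0) of the 10 carnitine shuttle probe sets on each array, quercetin left and control right. Points are arrays, labelled by replicate number, and bars are the mean ± SD (n = 4). Slc25a20, Cpt2 and the dimmer Cpt1a probe set have all 4 quercetin arrays above all 4 control arrays.

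One control array, number 2, differed most from the rest in its correlations and in the 3′ to 5′ signal ratios of GAPDH and beta-actin. Its mean correlation with the 7 others was 0.927, against 0.941 to 0.955, and its GAPDH 3′ to 5′ signal ratio, which is higher when RNA is shortened, was 3.79. That ratio was 1.91 to 2.36 on the quercetin arrays and 1.58 to 2.15 on the other control arrays. Control array 2 was the lowest of all 8 arrays for 3 of the 7 leading probe sets, those of Slc25a20, Cpt2 and Crot, and also for the dimmer Cpt1a and the second Crot probe set. Values without it are given beside the results of these genes and of Slc22a5. The beta-actin 3′ to 5′ ratio was 6.79 to 9.12 on the quercetin arrays, against 8.65, 21.4, 10.2 and 12.4 on the control arrays, so 3 of 4 control arrays exceeded every quercetin array. For hexokinase, quercetin array 4 stood out at 6.05, against 1.62 to 3.27 on the other arrays and 2.76 on control array 2. Quercetin array 4 was the highest of all 8 for Slc25a20, both Cpt1a probe sets and the second Crot probe set. Without it Slc25a20 had a log2 fold change of 0.65 and the leading Cpt1a probe set 0.26. With the GAPDH ratio as a covariate the log2 fold changes of Slc25a20, Cpt2 and the leading Cpt1a probe set were 0.65, 0.57 and 0.34. The parts of the beta-actin and hexokinase ratios were not tested.

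At the plasma membrane, Slc22a5 (1367950_at) had signals of 510, 605, 705 and 735 on the quercetin arrays, against 809, 548, 593 and 806 on the control arrays. The groups overlapped in part, with quercetin array 1 below every control array and control arrays 1 and 4 above every quercetin array. The means were 639 ± 102 in quercetin and 689 ± 138 in control (SD, n = 4 each). The log2 fold change, on the log2(signal + 16) scale used for all that follow, was -0.10 (SE 0.172), with a 95% interval of -0.47 to 0.27. That interval leaves room for a moderate difference either way. The value was 0.0013 without quercetin array 1 and -0.20 without control array 2, the highest and lowest of all settings.

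At the outer membrane, Cpt1a, the form of CPT1 that predominates in liver and most non-muscle tissues and the step that malonyl-CoA inhibits, was measured by 2 probe sets. The leading one (1386946_at) had signals of 2876, 2585, 2909 and 3288 in quercetin, against 2264, 2768, 2310 and 1999 in control. Control array 2 was the only control array inside the quercetin range. The log2 fold change was 0.32 (SE 0.133, 95% interval 0.03 to 0.61, limma adjusted p = 0.412). Without control array 2 it was 0.41. All 4 quercetin arrays lay above the other 3 control arrays, which follows from leaving out the only overlapping control and is no added result. In that setting 5.18% of all tested probe sets were separated in this way, against 3.09% with all arrays.

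The second Cpt1a probe set (1367836_at) had signals of 277, 282, 292 and 486 in quercetin, against 251, 151, 238 and 212 in control. Quercetin array 4 was far above the other quercetin arrays, and the groups did not overlap even so. Its log2 fold change came to 0.60 (SE 0.213, 95% interval 0.14 to 1.06, limma adjusted p = 0.349), 0.41 without quercetin array 4 and 0.45 without control array 2. Both probe sets had a higher mean in quercetin. The Pearson r of their deviations from the group means was 0.03 over the 8 arrays and 0.85 over the 4 quercetin arrays, and control array 2 was the highest control for one and the lowest for the other.

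Cpt1b, the CPT1 form of heart and skeletal muscle, was the dimmest leading probe set (1367742_at) and lay just inside the filter on low signals, with a mean log2 value of 5.74 where the lowest tested was 5.50. Its signals were 10.0, 41.2, 52.4 and 20.5 in quercetin, against 51.1, 62.4, 30.9 and 55.1 in control. The groups overlapped, with quercetin arrays 1 and 4 the lowest. The log2 fold change was -0.56 (SE 0.346, 95% interval -1.31 to 0.19). It was -0.87 with a pseudocount of 1 and -0.28 with 64, and -0.31 without quercetin array 1, the dimmest.

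Muscle markers, measured because a scraping can reach the muscle layer, had 6 of 12 genes above the filter, 4 higher and 2 lower with a median log2 fold change of 0.11, and 0 with an unadjusted p under 0.05. Their summed signals, mostly those of Mylk, were 1744 to 2092 in quercetin and 1849 to 3411 in control. The smooth muscle genes Actg2, Tagln, Cnn1 and Lmod1 were below the filter, so the sum is no measure of muscle content. None of the 6 was at 0 on any array. Of the striated muscle markers Ckm was below the filter, and Acta1, chosen after its values were seen, had 0.74 (95% interval -0.34 to 1.82). Its signals were 97.5, 130, 94.4 and 187 in quercetin, against 120, 6.04, 145 and 82.8 in control. Control array 2 was far below the other arrays, which overlapped between the groups. The Acta1 value without that array was not computed, so its sign is not compared with that of Cpt1b. The brightest of the 6, Mylk, had mean signals of 1295 in quercetin and 1798 in control. The part of muscle in the Cpt1b value was not tested.

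At the inner membrane, Slc25a20, the carnitine-acylcarnitine translocase (1398249_at), had signals of 494, 486, 436 and 524 in quercetin, against 345, 245, 290 and 302 in control. The lowest quercetin array was well above the highest control array. The means were 485 ± 36.9 in quercetin and 296 ± 41.4 in control (SD, n = 4 each). The log2 fold change was 0.69 (SE 0.148, 95% interval 0.37 to 1.01), with a limma adjusted p of 0.230 that ran from 0.117 to 0.594 over the alternatives tried. It was 0.61 without control array 2 and 0.77 without control array 1, the lowest and highest values of any setting.

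Cpt2, which returns the acyl chain to coenzyme A on the matrix side (1386927_at), had signals of 410, 359, 396 and 386 in quercetin, against 306, 157, 302 and 234 in control. The quercetin arrays lay close together above a wider control group, with an SD of 21.6 in quercetin against 70.3 in control. This gave a log2 fold change of 0.64 (SE 0.196, 95% interval 0.22 to 1.07, limma adjusted p = 0.301). Without control array 2 it was 0.45. All quercetin arrays were above all control arrays, as for 3.09% of all tested probe sets. Leaving out a control array cannot undo such a separation, so that setting is no check of it.

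**Figure D2:**
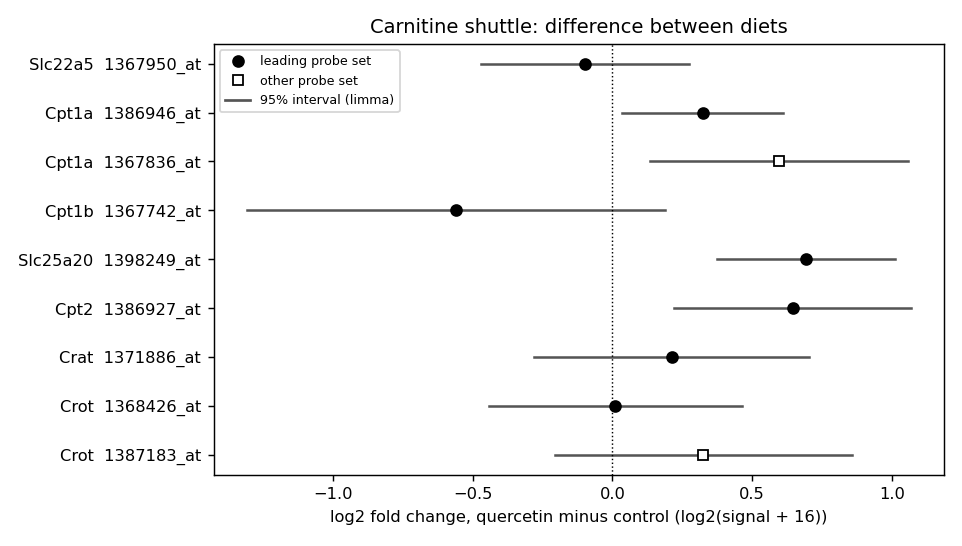
Log2 fold change, quercetin minus control, of the 9 tested carnitine shuttle probe sets with 95% intervals from limma. Filled circles are leading probe sets and open squares other probe sets. The intervals of Slc25a20, Cpt2 and both Cpt1a probe sets lie above 0 before adjustment for the 18625 probe sets tested, and those of the other 5 span 0.

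Crat, carnitine acetyltransferase, which buffers acetyl-CoA against acetylcarnitine (1371886_at), had signals of 402, 742, 380 and 675 in quercetin, against 341, 439, 552 and 507 in control. Quercetin arrays 2 and 4 were above all controls, and quercetin arrays 1 and 3 were within the control range. Its log2 fold change was 0.21 (SE 0.228, 95% interval -0.28 to 0.70), and it was 0.05 without quercetin array 2 and 0.36 without quercetin array 3.

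Crot, the carnitine octanoyltransferase of peroxisomes, had 3 probe sets. The leading one (1368426_at) had signals of 601, 518, 573 and 707 in quercetin, against 972, 474, 500 and 528 in control. Control array 1 was above every other array and the remaining controls were mostly below the quercetin arrays. The log2 fold change was 0.01 (SE 0.209, 95% interval -0.44 to 0.46), 0.25 without control array 1 and -0.09 without control array 2, so its direction is not settled. The second (1387183_at) had 92.8, 95.4, 93.6 and 138 in quercetin, against 134, 61.8, 69.8 and 67.4 in control, with control array 1 again high. Its log2 fold change was 0.32 (SE 0.246), 0.54 without control array 1, 0.23 without control array 2 and 0.20 without quercetin array 4.

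These 2 Crot probe sets followed each other across the arrays, with a Pearson r of 0.96 for deviations from the group means over 8 arrays. The third (1380015_at) was just outside the filter on low signals, with a mean log2 value of 5.21. Its signals were 11.3, 58.8, 34.4 and 2.0 in quercetin, against 28.4, 20.3, 20.3 and 17.5 in control, a log2 fold change of -0.02, and it was not tested.

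Across the 7 leading probe sets, 5 had a higher and 2 a lower mean in quercetin. The median log2 fold change was 0.21, against 0.04 over all 10266 tested genes, of which 55.9% were higher. That median is the value of Crat, and it was 0.08 without quercetin array 2. Without control array 2 the median was 0.20 with 4 genes higher.

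**Figure D3:**
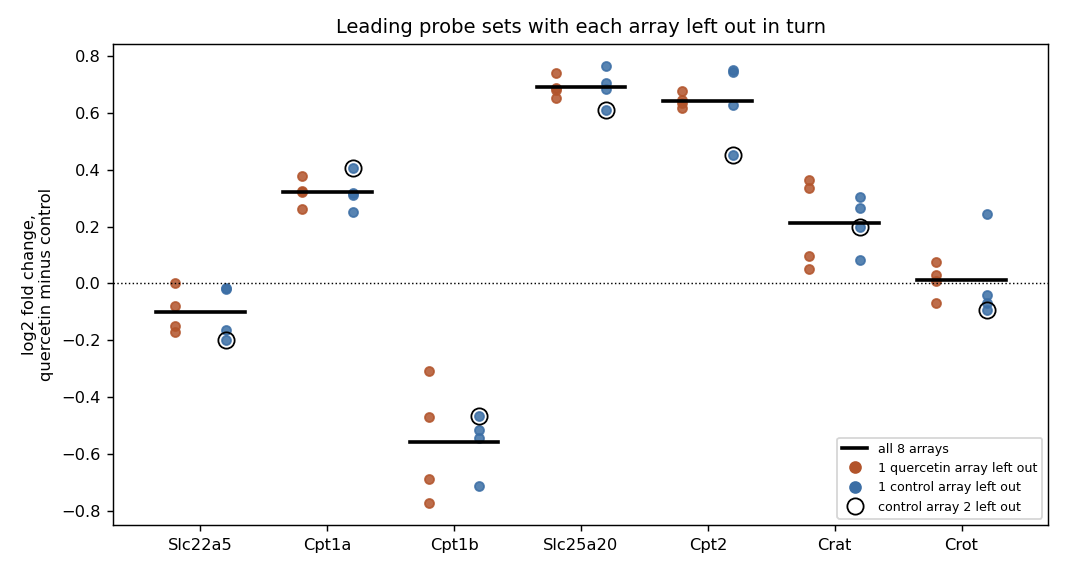
Log2 fold change, quercetin minus control, of each leading probe set with all 8 arrays (black line) and with 1 array left out at a time (points, coloured by the group of the array left out). The circled point leaves out control array 2. Slc25a20 stays between 0.61 and 0.77 and Cpt2 between 0.45 and 0.75, while the points of Crot and Slc22a5 fall on both sides of 0.

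Within the diet groups the members did not vary as one block. Of the 21 pairs of leading probe sets, 9 had a positive correlation of their deviations from the group means, and the median r was -0.04. Slc25a20 had an r of 0.79 with Crot, 0.72 with Cpt2, -0.38 with the leading Cpt1a probe set and 0.74 with the dimmer one. Over the 4 quercetin arrays alone these were 0.58, -0.14, 0.40 and 0.63, so that the sign turned for Cpt2 and for the leading Cpt1a probe set. These values rest on 8 arrays that share their scaling, and on control array 2, which was lowest for Slc25a20, Cpt2 and Crot.

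The tested probe sets with 1 gene symbol that were most like Slc25a20 in these deviations, over the same 8 arrays, were those of Acat1 (r = 0.99), the mitochondrial acetoacetyl-CoA thiolase, Rab5a (0.99), a GTPase of early endosomes, Mrpl10 (0.98), a mitochondrial ribosomal protein, Gmppb (0.98), an enzyme of GDP-mannose synthesis, and Ube2l6 (0.98), a conjugating enzyme of ISG15. With 8 arrays and 18625 probe sets, values of this size are a description of these arrays. The log2 fold changes of those 5 were 0.42, 0.09, 0.47, 0.09 and 0.17.

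Downstream of the shuttle, the 16 genes of mitochondrial beta-oxidation were all tested, and their brightest probe sets were higher in quercetin in 16 of 16. Their median log2 fold change was 0.40, 0 passed limma over all probe sets and 11 had an unadjusted p under 0.05. Of all 10266 tested genes 55.9% were higher and 9.39% had an unadjusted p under 0.05. Eci1, an enoyl-CoA isomerase, had 0.60 (SE 0.162), Hadha, the alpha subunit of the trifunctional protein, 0.59 (SE 0.182), and Acaa2, the matrix thiolase, 0.56 (SE 0.167). Other probe sets of these 3 genes had 0.21, -0.01 and -0.19, so that for Hadha and Acaa2 the sign turned with the probe set. On control array 2 the mean of the list was -0.42 relative to the 8 arrays, the lowest of all. Without it 15 of 16 were higher, with a median of 0.34. The direction of several of these genes was known when the list was written, so their count is not independent evidence.

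Upstream, fatty acid uptake and acyl-CoA synthesis had 10 of 12 genes tested, 6 higher and 4 lower, with a median of 0.11 and 0 past the threshold. Fabp1, a cytosolic fatty acid carrier of liver and gut, had 2.50 (SE 0.828) with signals of 8284 ± 6551 in quercetin and 1959 ± 2022 in control (SD, n = 4 each). Acsl3 and Acsl1, which make the acyl-CoA that CPT1 uses, had -0.37 (SE 0.182) and -0.36 (SE 0.178), with -0.49 on another Acsl1 probe set. The other tested Acsl and Acsm genes, chosen after their values were seen, were Acsl4 (0.25), Acsl5 (0.04, and -0.03 on another probe set) and Acsm3 (0.18). These synthetases thus had both signs. So had the Slc27 genes of this list, also chosen after their values were seen: Slc27a1 (-0.06), Slc27a2 (-0.08) and Slc27a4 (0.32).

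Of the peroxisomal genes, which supply the chains that CROT and CRAT export, 5 of 13 were tested. Of these 4 were higher and 1 lower, with a median of 0.22 and 0 with an unadjusted p under 0.05. Abcd3, an acyl-CoA importer of the peroxisome, had 0.49 (SE 0.246), Ehhadh 0.27 (SE 0.207) and Hsd17b4 0.22 (SE 0.155), the last 2 being bifunctional enzymes of peroxisomal oxidation.

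Carnitine synthesis and other carnitine carriers had 6 of 9 genes tested, 3 higher and 3 lower, with a median of -0.01 and 0 with an unadjusted p under 0.05. Slc16a9, a carnitine efflux transporter in human cells, had 0.61 (SE 0.330) and Aldh9a1, an aldehyde dehydrogenase of carnitine synthesis, 0.22 (SE 0.137). Slc25a29, a mitochondrial carrier of basic amino acids, had -0.23 (SE 0.151).

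The genes that set malonyl-CoA, the inhibitor of CPT1, had 7 of 10 tested, 4 higher and 3 lower, with a median of 0.02 and 0 with an unadjusted p under 0.05. The named ones were subunits of AMP-activated kinase, Prkab1 at 0.30 (SE 0.190), Prkag1 at -0.17 (SE 0.140) and Prkaa2 at 0.17 (SE 0.196). Acaca, which makes malonyl-CoA, had -0.03 (SE 0.143), and Mlycd, which removes it, 0.02 (SE 0.186). Those 2 were chosen after their values were seen.

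PPAR receptors and partners, which control several shuttle genes in liver and muscle, had 9 of 11 genes tested, 5 higher and 4 lower, with a median of 0.01. Hnf4a, a nuclear receptor of gut epithelium, had -0.31 (SE 0.133, limma adjusted p = 0.434), with -0.17 and 0.82 on other probe sets. Med1 had -0.29 (SE 0.145), and Ppargc1b, a coactivator of mitochondrial genes, 0.22 (SE 0.144). Ppara was below the filter on low signals.

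Of 14 other PPAR alpha targets 8 were tested, 3 higher and 5 lower, with a median of -0.07 and 0 past the threshold. With quantile normalisation, median centring, array weights or a pseudocount of 64, 4 of the 8 were higher. Ucp2, a carrier of the inner mitochondrial membrane, had 0.57 (SE 0.157) and no overlap between the groups, as had 387 of all 10266 tested genes in that direction. Acot1, an acyl-CoA thioesterase, had 0.62 (SE 0.279). Creb3l3, a transcription factor of lipid metabolism, had -0.98 (SE 0.338) and no overlap either, lower in quercetin, as had 213 of all 10266 genes. Its signal was 21.0 ± 13.5 in quercetin and 54.6 ± 15.2 in control (SD, n = 4 each).

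**Figure D4:**
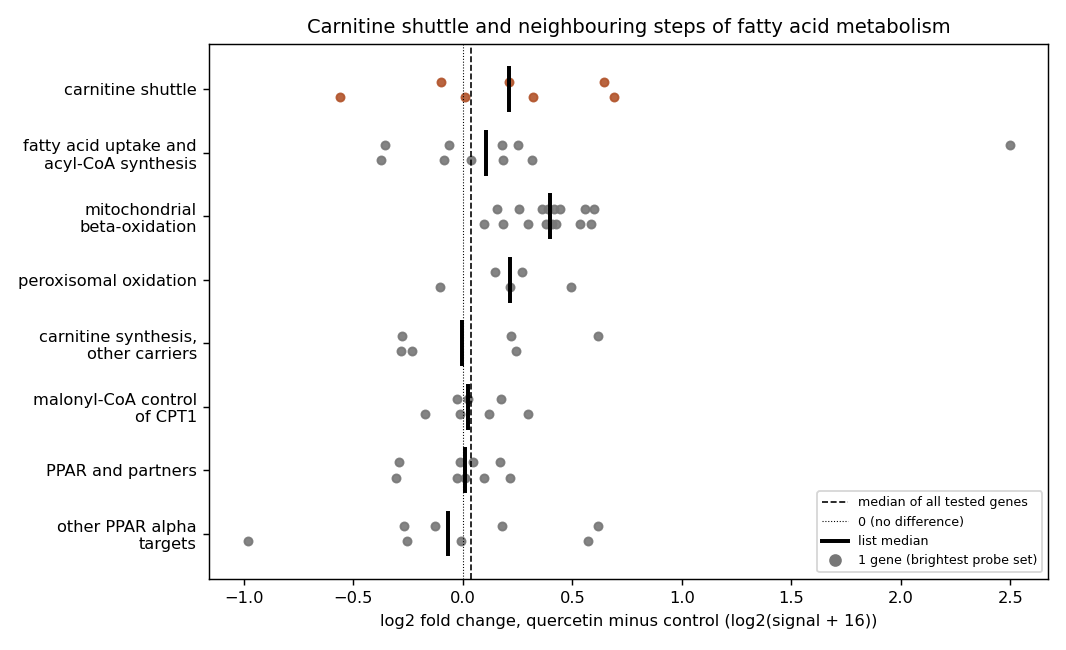
Log2 fold change, quercetin minus control, of each tested gene (brightest probe set) in the carnitine shuttle and 7 neighbouring lists. Thick bars are list medians and the dashed line is the median of all 10266 tested genes, 0.04. The 16 beta-oxidation genes all lie above 0, and the shuttle genes run from -0.56 to 0.69.

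The scrapings had signal for both main epithelial cell types, with 14 of 14 markers of absorptive colonocytes and 9 of 9 of goblet cells above the filter. Some were dim, such as Scnn1g, with mean signals of 58.6 in quercetin and 55.3 in control. Car1, a carbonic anhydrase of colonocytes, had 18471 in quercetin and 17260 in control, and the mucin Muc2 had 23127 in quercetin and 27384 in control. Summed absorptive markers were 75639 to 85481 in quercetin and 62791 to 88730 in control. Their median log2 fold change was 0.13, and 0.01 without control array 2, on which the mean of that list was also lowest (-0.44).

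Proliferating cell markers were higher in 10 of 10 genes with a median of 0.63. On control array 1 their mean was -1.16 relative to the 8 arrays, and without it the median was 0.33. All 5 tested leukocyte markers were higher (median 0.57, and 0.30 without control array 2). The 3 tested adipocyte markers were Fabp4 (1.54, SE 0.470), Adipoq (0.41) and the brightest, Cidec (-0.13). Fabp4 was dim and its groups overlapped, with mean signals of 80.8 in quercetin and 14.2 in control. That control mean lies below 29.4, the signal that matches the lowest tested mean over all arrays. In these lists 0 genes passed limma over all probe sets. Fibroblast markers had 2 of 7 tested (Col3a1 0.22, Col1a1 -0.14). Goblet cell markers had 6 higher and 3 lower with a median of 0.10. Without control array 2, 3 of 9 were higher with a median of -0.05. Other leading markers by the naming rule were Slc9a3 (0.72), Spink4 (1.37, SE 0.478), Cdk1 (0.92), Pcna (0.22), Mylk (-0.42) and Cd74 (0.64). The groups overlapped for Spink4, a goblet cell marker, with signals of 1900, 4174, 1221 and 815 in quercetin and 253, 630, 1133 and 919 in control. In bulk tissue, fewer cells of a type and less RNA per cell cannot be told apart, and the part of cell makeup in the Slc25a20, Cpt2 and Cpt1a values was not tested.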

How the data were processed

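The authors deposited linear intensity values, with 1 signal for each probe set on each array. Per the submitters' processing notes these were produced by MAS5, which scales arrays to a common level; in the deposited intensities the mean, trimmed by 2% at either end, was 200.1 on all 8. No later step and no genome build is stated in these sources. From 31099 probe sets, 57 array controls were left out. Values were analysed as log2(signal + 16), a scale that shrinks differences between dim signals. The upper 60% by mean over all arrays (18625 probe sets) were tested by limma 3.58.1 in R 4.3.3 (lmFit, eBayes with a trend, two-sided, Benjamini-Hochberg, threshold 0.05), the test behind every adjusted p. The number of arrays limits precision: the median SE was 0.223 and the median 95% interval reached 0.481 to either side. Tables were summarised in Python 3.11.15 with pandas 2.3.3.

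Symbols came from the platform annotation (20826 probe sets with 1 symbol, 436 with several, 9780 with none), and all 7 member symbols matched RefSeq by Entrez identifier. The members, the gene lists, the tests and the alternatives were chosen with earlier results of these data known. The naming rule took all members, the 3 genes with the smallest p of each pathway list, the brightest marker and the one with the smallest p of each cell type list, and the 5 probe sets most like Slc25a20.

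For this comparison the fit was tested on 10 simulated data sets with the spread of the 18625 probe sets, independent normal noise and 200 changed probe sets each. It recovered 5.4% of log2 changes of 0.5, 45% of changes of 1, 72% of 1.5 and 88.8% of 2, and 4.26% of its calls were false. The simulated probe sets were not correlated and no array deviated as control array 2 does, so these rates need not hold for the real arrays. Other settings tried were median centring or quantile normalisation, pseudocounts of 1 and 64, the upper 40% or all probe sets, no trend, weighted arrays, a block for the replicate number, averaging all probe sets of each gene, the GAPDH ratio as a covariate, each array left out in turn, and control arrays 1 and 2 left out.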

Additional observations from a re-analysis of the deposited data

Results flagged for a closer look

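The 10 member probe sets gave 20 groups of 4 arrays, in 4 of which a single array was distant from the rest; about 1 is the number that chance gives. Distance is the space between that array and its neighbour, divided by the spread from lowest to highest on the log2 scale. Quercetin array 4 lay high for the dimmer Cpt1a probe set 1367836_at (0.908) and for the second Crot probe set 1387183_at (0.932). Control array 1 lay high for both the leading Crot probe set 1368426_at (0.851) and the second, 1387183_at (0.851). Probe sets of one gene share their arrays and are not independent. No cause was tested.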

How the results depend on the processing

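Over 20 alternatives for each gene, 19 of the leading probe set and 1 of the mean of its probe sets, Slc25a20 (0.61 to 0.77), Cpt2 (0.45 to 0.75) and Cpt1a (0.25 to 0.43, and 0.46 as the mean of both probe sets) were above 0 in all 20 and Cpt1b (-0.87 to -0.28) below 0 in all 20. Crat was below 0 in 1, Crot in 5, and Slc22a5 above 0 in 1. The filter, the trend and the replicate block leave a fold change as it is, as does averaging for genes with 1 probe set. Those settings are therefore no check of direction, although they are among the 20. No member passed the threshold in any of the fits, the lowest adjusted p being 0.117 (Slc25a20 with the GAPDH ratio as a covariate). The member median lay between 0.08 and 0.33 with single arrays left out, 0.0763 without quercetin array 2, and 4 to 6 genes were higher. Of all probe sets, 2 passed. There were 3 with a pseudocount of 64, 1 with a pseudocount of 1, quantile normalisation, median centring, no filter, no trend or the replicate block, 1 to 2 with single arrays left out, and 0 without control arrays 1 and 2 (limma, 1394 at an unadjusted p under 0.05). Same-numbered arrays had correlations of -0.02, 0.16, -0.15 and 0.14, within the -0.20 to 0.17 of the other pairs. These few values cannot settle whether the replicate numbers pair the arrays. No member was called with or without the block. The unadjusted limma p of the leading Cpt1a probe set was 0.031 without it and 0.056 with it. In the simulation 5.4% of changes of 0.5 and 45% of changes of 1 were recovered, and the largest member difference, 0.69, lies between those sizes. Those rates are averages over all tested probe sets, with a median SE of 0.223. Slc25a20 had an SE of 0.148, so they do not give the rate for that probe set.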
